A study of Mus musculus with 8 samples.

Results

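Axon guidance ligands and receptors were examined in livers of mice with an albumin-Cre deletion of Zfp36l1 and Zfp36l2. The genes were taken by symbol, as semaphorins of classes 3 to 7, plexins, ephrins, Eph receptors, netrins, UNC5 receptors, slits and ROBO receptors with a mean normalised read count of at least 1 over the 8 livers. The pattern matched 63 of the 22052 genes measured, and all 63 passed the mean. They comprise 34 ligands, 26 receptors and 3 genes that share only the letters of a family name, so 60 genes carry the results. Unc5c (mean 1.00) and Ntn5 (mean 1.02) lay just inside the mean of 1, and no matched gene lay outside it. Total liver RNA was sequenced from 4 double-knockout (dKO) mice, of genotype Zfp36l1fl/fl/Zfp36l2fl/fl/Alb-Cre, and from 4 control mice, of genotype Zfp36l1fl/fl/Zfp36l2fl/fl. All 8 were C57BL/6 males aged 8 weeks that had received corn oil into the peritoneal cavity, and each library is a separate, numbered mouse. Both groups carry the floxed alleles, and the controls differ from the dKO mice by the absence of Alb-Cre. The albumin promoter that drives this Cre is active in hepatocytes, and whether other liver cells keep both genes was not examined.

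Semaphorins signal through plexins, often together with the neuropilins. Ephrins are membrane-bound ligands of the Eph receptor tyrosine kinases. Netrins bind DCC, neogenin and the UNC5 receptors, and slits bind ROBO receptors. These systems attract or repel growing axons, and the same molecules act in vessel sprouting, immune cell traffic and epithelial sheets, in which liver endothelial, stellate, biliary and parenchymal cells take part. ZFP36L1 and ZFP36L2 bind AU-rich sequences in the tails of mRNAs and speed the loss of those mRNAs.

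Levels are normalised read counts, that is, gene reads divided by a factor per library, given for mice 1 to 4 of a group in that order or as mean ± SD (n = 4 per group). A change is the dKO mean minus the control mean of log2(value + 0.5), with its standard error (SE). The added 0.5 generally makes changes of genes with few reads smaller than a lesser addition would. As a difference of mean logs, a change can still exceed the log2 of the ratio of means, as for Sema3g (4.74-fold by means, log2 change 2.66). Higher and lower are calls at a limma adjusted p under 0.05 over all 20055 genes tested. The libraries held 17273389 to 19299556 reads in genes in dKO livers and 15253827 to 17745944 in control livers. A gene at 0 lies below a limit of 3 reads, or 2.55 to 3.43 normalised read counts, and such limits cover counting error only. Zfp36l1 (chr12:80107754-80113013, minus strand, mm10) averaged 226 ± 27.6 in dKO livers and 1370.2 ± 194 in control livers (log2 change -2.60, SE 0.11, exact permutation p = 0.0286). Zfp36l2 (chr17:84183931-84187947, minus strand, mm10) averaged 796 ± 94.4 in dKO livers and 1584 ± 393 in control livers (log2 change -0.96, SE 0.17, exact permutation p = 0.0286). This exact p, 2-sided, is the smallest that the 70 assignments of 8 livers allow. Transcripts of albumin, which mark hepatocytes, averaged 824048 ± 26104 in dKO livers and 773160 ± 55865 in control livers. The other 9 hepatocyte markers examined went the other way in sum, at 405640 to 450970 in dKO livers and 471297 to 506221 in control livers. Control 4 stood apart on the principal component that held 74.5% of the variance. Its score was 43.3, against 67.7 to 76.5 for the other controls and -68.9 to -57.5 for the dKO livers. Without control 4, 29 of the 60 guidance genes were higher and 3 lower in dKO livers.

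Genes for axon guidance ligands and receptors that were called lay mostly on the higher side in dKO livers. Of the 60 ligands and receptors, 25 were higher (41.7%), 3 were lower (5%) and 32 were neither. Among all tested genes 21.2% were higher and 17% were lower. Of the same 60 genes, 19 were higher and 1 was lower by at least 2-fold, against 12.8% of all tested genes higher and 3.97% lower by that much. The median log2 change was 0.79 over the 60 genes and 0.03 over all tested genes. All 4 dKO livers lay above all 4 control livers for 25 genes and below them for 3, against 19.4% and 16.9% of all tested genes (36.4% in either direction). In bulk tissue, more cells of a type and more RNA per cell cannot be told apart. The 28 called genes were called in the same direction by limma, edgeR and DESeq2.

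Over all members, the medians of ligands and receptors were equal to 2 decimals at the pseudocount of 0.5, but the ligand median depended on this setting. With a pseudocount of 1 the ligand median was 0.58, and with 0.1 it was 1.05, while the receptor median stayed at 0.79. With a filter at a mean of 10 the medians were 0.52 for ligands and 0.87 for receptors. Of the 34 ligands, 13 were higher (38.2%), 2 were lower and 19 were neither, with a median log2 change of 0.79. Of the 26 receptors, 12 were higher (46.2%), 1 was lower and 13 were neither, with a median log2 change of 0.79. The ligand median was 0.52 without control 3, and the receptor median was then 0.78. The share of higher genes was greater at higher expression, here and over all genes. Where the mean over the 8 livers reached 20, 12 of 18 receptors and 11 of 24 ligands were higher, against 26.4% of all genes at that level. The median log2 change was there 0.79 for receptors and 0.51 for ligands. Below that mean, 0 of 8 receptors and 2 of 10 ligands were higher, against 11.7% of all genes at that level. The difference between ligands and receptors was not tested. Over the 34 ligands, the median deviation from the control mean was 0.66 to 1.18 on the log2 scale in dKO livers and -0.20 to 0.23 in control livers. Over the 26 receptors it was 0.71 to 0.85 in dKO livers and -0.06 to 0.08 in control livers. By both measures every dKO liver stood above every control liver.

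**Figure D1:**
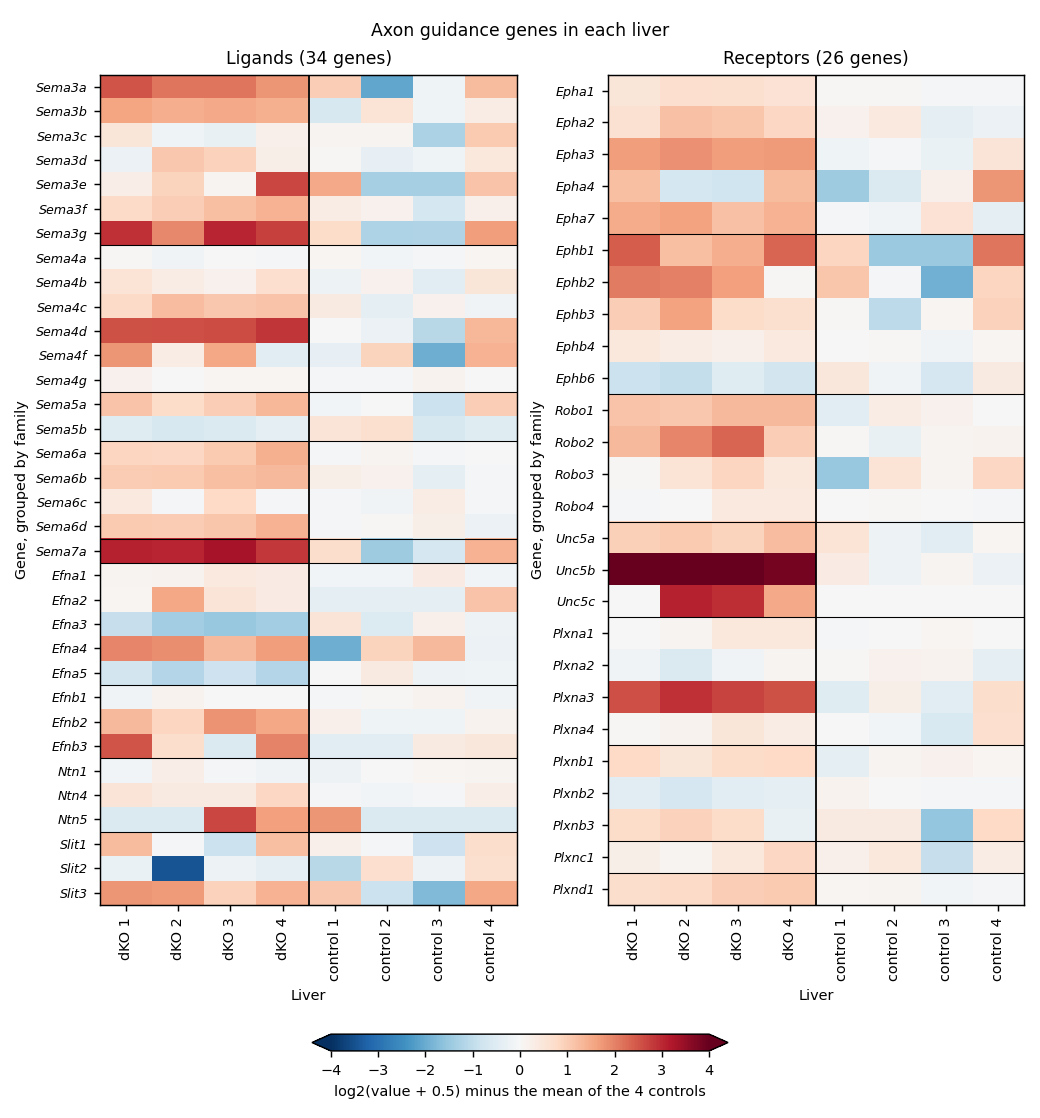
Each cell is the log2(value + 0.5) of a gene in 1 liver minus the mean of the 4 control livers, with dKO livers left of the line and control livers right of it. Rows are the 34 ligands (left) and 26 receptors (right), grouped by family, and the colour scale ends at 4 in each direction. Red fills most dKO columns of the semaphorins, with Unc5b the darkest row, while Sema4g, Efnb1 and Ntn1 are pale in all livers.

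**Figure D2:**
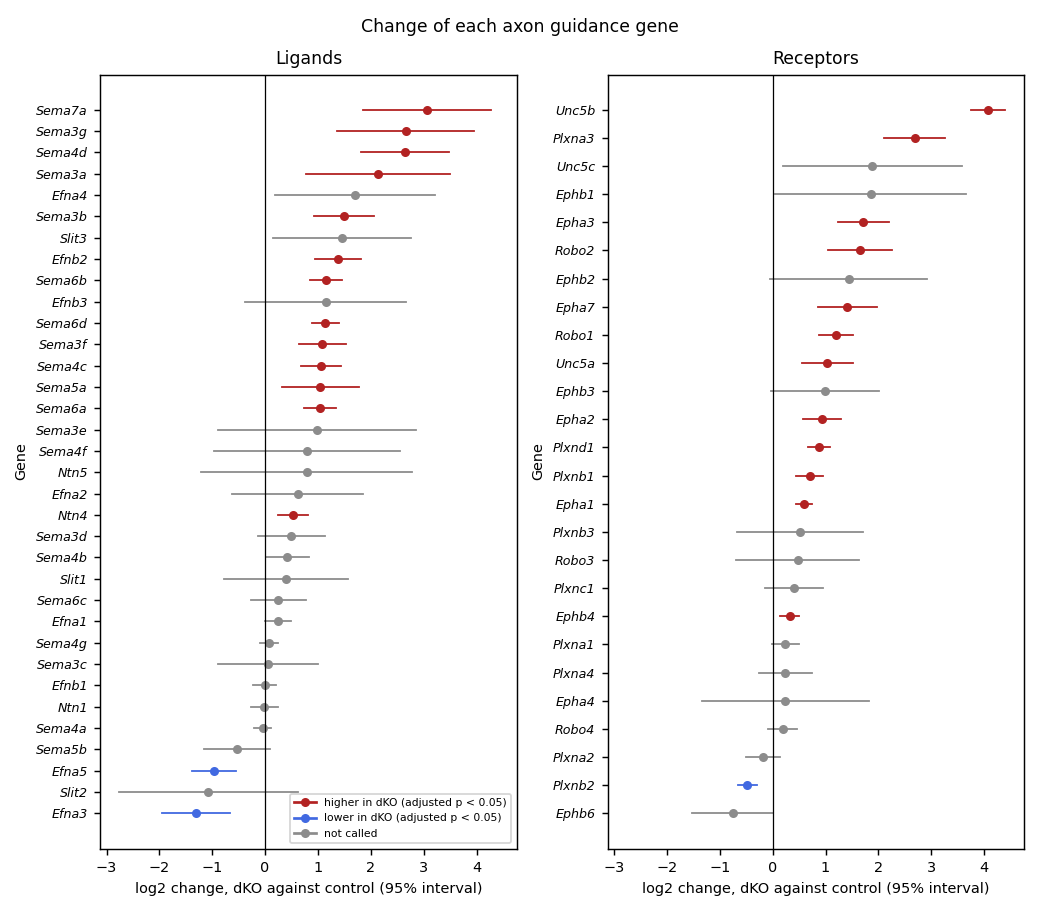
Points are log2 changes of dKO against control livers with their 95% intervals, for ligands (left) and receptors (right), ordered by size. The intervals of Unc5b and Plxna3 lie highest among receptors, and Efna3, Efna5 and Plxnb2 are the genes called lower. The value of Unc5c, whose control livers are all listed at 0, depends on the pseudocount of 0.5.

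Because the deleted proteins bind AU-rich sequence, the annotated 3' untranslated regions (UTRs) were searched for the core heptamer TATTTAT, in DNA letters on the sense strand of the transcript only. The heptamer was present in 29 of the 60 genes (48.3%), in 17 of 34 ligands and 12 of 26 receptors, and in 30.1% of 15406 tested protein-coding genes. It was found in 16 of the 25 higher genes (64%), in 12 of the 32 that were neither (37.5%) and in 1 of the 3 lower genes, Efna5. Over all tested genes the shares were 33.1% of those higher, 29.9% of those neither and 26.7% of those lower. Among the 19 genes higher by at least 2-fold it was found in 15 (78.9%). UTR length was set beside these shares, and the median length of the longest UTR was 1501 bases for the 60 genes and 1097 bases for all tested protein-coding genes. It was 1363 bases for the 25 higher genes, 1535 bases for the 32 that were neither and 2146 bases for the 19 genes higher by at least 2-fold. Unc5b, the receptor with the greatest change, holds none. No test of these shares was made, and a match describes the letters, not a bound site. The following 30-base stretches (GENCODE M21 annotation, mm10) show the heptamer in capitals. They come from 6 genes that were higher in dKO livers, then from Efna5, which was lower, and Sema4g, which was neither.
Plxna3 (chrX:74343837-74343866, plus strand): tcctacccaccTATTTATtaatgtaattcc
Epha3 (chr16:63545497-63545526, minus strand): gggcaagtgcgTATTTATtttcttttggat
Epha2 (chr4:141328588-141328617, plus strand): cactggaacttTATTTATttctgtttcctc
Sema6d (chr2:124667483-124667512, plus strand): agttctatcagTATTTATgttgaaatttct
Sema4c (chr1:36548701-36548730, minus strand): gtgtccccacaTATTTATttgttgtaaata
Efnb2 (chr8:8619205-8619234, minus strand): aagataggacaTATTTATaataggtgtata
Efna5 (chr17:62605111-62605140, minus strand): ttctttgccttTATTTATgcgctcgacact
Sema4g (chr19:45003247-45003276, plus strand): cacaatgaatgTATTTATtgtgagaatggc
The heptamer thus stands in genes of all 3 calls, and of the genes shown Epha3 holds 3 and Epha2 and Efnb2 hold 2 each. The most, 4 each, are in Epha4 and Sema3d, which were neither.

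Semaphorins made up most of the higher ligands. Of the 20 semaphorins, 11 were higher (55%), each by at least 2-fold, 0 were lower and 9 were neither, with a median log2 change of 1.04. All tested genes had 21.2% higher, 12.8% higher by at least 2-fold and 17% lower. Higher genes came from every class, with 4 of 7 class 3, 2 of 6 class 4, 1 of 2 class 5, 3 of 4 class 6 and the only class 7 gene.

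Class 3 semaphorins are secreted and repel axons and endothelial sprouts. Sema3f, which acts through neuropilin 2 and plexin-A3, held 370.1, 427, 496 and 570 in dKO livers against 268, 247, 134 and 252 in control livers. Its lowest dKO liver lay above its highest control liver, and control 3 was the lowest of all (log2 change 1.08, SE 0.21, limma adjusted p = 0.0012). Sema3b held 79.4, 72.1, 74.9 and 70.8 in dKO livers against 16.4, 38.0, 23.1 and 32.0 in control livers. The dKO livers were close together and all above the controls (log2 change 1.49, SE 0.26, limma adjusted p = 0.00067). Sema3g, an endothelial semaphorin, held 62.3, 31.4, 69.0 and 54.9 in dKO livers against 13.3, 3.08, 3.16 and 26.3 in control livers. The groups did not overlap, but dKO 2 and control 4 came near each other (log2 change 2.66, SE 0.59, limma adjusted p = 0.0035). Sema3a, the founding repellent of the class, was rarer, at 28.4 ± 6.06 in dKO livers and 8.37 ± 6.36 in control livers. It was higher by 2.14 on the log2 scale (SE 0.62, limma adjusted p = 0.016), and the call was lost without dKO 1 (adjusted p = 0.0635). Sema3c (22.2 ± 5.57 in dKO livers, 24.3 ± 14.4 in control livers), Sema3d (69.97 ± 27.5 in dKO livers, 47.3 ± 11.4 in control livers) and Sema3e, near the detection limit, were neither.

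Class 4 semaphorins are membrane proteins that signal through plexins of the B group and through immune receptors. Sema4d, the ligand of plexin-B1 and CD72, held 181, 185, 186 and 223 in dKO livers against 30.8, 25.6, 13.7 and 76.6 in control livers. The groups stood far apart, with control 4 the highest control (log2 change 2.65, SE 0.38, limma adjusted p = 0.00016). Sema4c, a ligand of plexin-B2, held 163, 223, 203 and 211 in dKO livers against 122, 73.9, 106 and 85.8 in control livers. All dKO livers were above all controls (log2 change 1.06, SE 0.17, limma adjusted p = 0.00038), and 7.27% of its exonic length is shared with an antisense gene. Sema4g, the most abundant guidance gene of these livers, held 12037, 10505, 11324 and 11257 in dKO livers against 10355, 10105, 11701 and 10664 in control livers. These groups overlapped (log2 change 0.08, SE 0.08, limma adjusted p = 0.49). Sema4a averaged 2109.6 ± 108 in dKO livers and 2182 ± 132 in control livers and was neither. Sema4b (222 ± 34.8 in dKO livers, 169 ± 46.9 in control livers) and the rare Sema4f were neither as well. Of the 6 genes of this class, Sema4c and Sema4d were the ones called.

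The remaining semaphorins are anchored in the membrane. Sema6d, a plexin-A1 ligand, held 629.5, 620.4, 660.0 and 804 in dKO livers against 295, 316, 359 and 261 in control livers. Sema6b, a plexin-A4 ligand, held 309, 317, 354 and 378 in dKO livers against 181, 172, 119.9 and 144 in control livers. Sema6a, a ligand of plexins A2 and A4, held 229, 223, 259.7 and 336 in dKO livers against 119, 135, 123 and 128 in control livers. In none of these did the groups overlap, and the log2 changes were close, at 1.14 (SE 0.12) for Sema6d, 1.15 (SE 0.14) for Sema6b and 1.03 (SE 0.14) for Sema6a. Their limma adjusted p-values were 9.4e-06, 3.8e-05 and 9.2e-05 in that order. Sema6c averaged 58.3 ± 17.8 in dKO livers and 47.7 ± 6.84 in control livers and was neither. Sema7a, which is anchored by a lipid tail and binds plexin-C1 and integrins, held 34.2, 33.3, 40.0 and 28.9 in dKO livers against 6.16, 1.03, 2.10 and 10.3 in control livers. Its control reads were few, and the log2 change was 3.06 (SE 0.56, limma adjusted p = 0.00086). Sema5a, whose receptors include plexins A1 and B3, held 68.4, 51.8, 62.2 and 79.1 in dKO livers against 28.8, 30.8, 16.8 and 61.8 in control livers. Control 4 lay inside the dKO range (log2 change 1.05, SE 0.33, limma adjusted p = 0.026), and the call was lost under quantile normalization (adjusted p = 0.122) and without any of 6 single livers (adjusted p 0.0529 to 0.0776). Sema5b held 48.3, 43.5, 45.1 and 51.2 in dKO livers against 97.6, 106, 43.1 and 48.0 in control livers. Controls 1 and 2 were high and the other controls lay at the dKO level, so the groups overlapped.

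Ephrins were called in both directions. Of the 8 ephrins, 1 was higher (12.5%), 2 were lower (25%) and 5 were neither. Beside these stand 21.2% higher and 17% lower over all tested genes, and the difference was not tested. Efnb2, the ephrin of arterial endothelium and partner of EphB4, held 156, 115, 223 and 185 in dKO livers against 72.9, 56.4, 55.7 and 69.8 in control livers. All dKO livers lay above the controls, with a wide spread among them (log2 change 1.38, SE 0.20, limma adjusted p = 0.00018). Efna3, an ephrin held by a lipid anchor, was lower in dKO livers, at 23.1, 16.6, 15.3 and 16.8 against 64.7, 30.8, 51.5 and 38.9 in control livers. No dKO liver reached the lowest control (log2 change -1.31, SE 0.29, limma adjusted p = 0.0036). The antisense gene Gm15998 shares 14.1% of the exonic length of Efna3, and no source used here gives the strand setting of the counting. Efna5, a ligand of EphA receptors in retinal mapping, held 58.3, 42.5, 54.5 and 42.8 in dKO livers against 97.6, 124, 83.1 and 85.8 in control livers. It too was lower without overlap (log2 change -0.97, SE 0.19, limma adjusted p = 0.0017).

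The ephrins with the highest levels were not called. Efna1, the main ligand of EphA2, held 782, 802, 965 and 916 in dKO livers against 675, 669, 925 and 676 in control livers. Control 3 lay among the dKO livers and the other controls below them (log2 change 0.24, SE 0.12, limma adjusted p = 0.12). Efnb1 held 336, 406, 371 and 364 in dKO livers against 355, 386, 412 and 336 in control livers. The groups covered nearly the same range (log2 change -0.01, SE 0.10, limma adjusted p = 0.94). Efna4 was above the controls in all dKO livers but rare, at 5.84 ± 1.21 in dKO livers and 2.11 ± 1.89 in control livers, and was not called (limma adjusted p = 0.0741). Efna2 and Efnb3 were near the detection limit.

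Netrins and slits gave 1 call among 6 genes, against 38.2% of all tested genes called in either direction. Ntn4, a netrin of basement membranes, held 321, 288, 282 and 398 in dKO livers against 208, 207, 212 and 264 in control livers. The groups did not overlap, with dKO 4 and control 4 the highest of their groups (log2 change 0.52, SE 0.13, limma adjusted p = 0.0070). Ntn1, the classical ligand of UNC5 receptors, averaged 265 ± 35.9 in dKO livers and 267 ± 27.1 in control livers (log2 change -0.02, 95% interval -0.28 to 0.24). Slit3 held 65.4, 63.8, 36.6 and 51.2 in dKO livers against 41.1, 10.3, 5.26 and 56.0 in control livers. Controls 1 and 4 lay within the dKO range, controls 2 and 3 far below it (log2 change 1.45, SE 0.60, limma adjusted p = 0.077). Slit1 averaged 15.4 ± 9.70 in dKO livers and 10.4 ± 4.47 in control livers. Slit2 averaged 3.00 ± 2.01 in dKO livers and 5.62 ± 3.01 in control livers, close to the detection limit, as was Ntn5.

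Among receptors, Unc5b changed most. UNC5B is a netrin receptor that repels axons and vascular tip cells. It held 974, 1079.9, 1293 and 886 in dKO livers against 78.0, 53.3, 66.3 and 52.6 in control livers. Every dKO liver was more than 10 times every control liver, and the mean was 16.9-fold higher (chr10:60762593-60831581, minus strand, mm10; log2 change 4.07, SE 0.15, limma adjusted p = 4.6e-09). Under the 18 alternative settings its log2 change was 3.93 to 4.19. Unc5a, a related netrin receptor, held 85.5, 91.5, 81.8 and 102 in dKO livers against 63.7, 38.0, 32.6 and 45.7 in control livers. It was higher with no overlap and a smaller step (log2 change 1.04, SE 0.22, limma adjusted p = 0.0024). Unc5c had 9 reads over the dKO livers and 0 over the control livers, so no fold is given.

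Plexins, the semaphorin receptors, were called in both directions. Of the 9 plexins, 3 were higher (33.3%), 1 was lower (11.1%) and 5 were neither, with a median log2 change of 0.40. All tested genes had 21.2% higher and 17% lower, and the difference was not tested. Plxna3, a receptor of class 3 semaphorins, held 124, 155, 134 and 121 in dKO livers against 14.4, 23.6, 14.7 and 33.2 in control livers. It rose 6.22-fold with a wide gap between the groups (log2 change 2.69, SE 0.27, limma adjusted p = 8.0e-06). Plxnd1, an endothelial plexin that binds SEMA3E, held 1316, 1389, 1621 and 1685 in dKO livers against 857, 885, 756 and 769.7 in control livers. All dKO livers were above the controls (log2 change 0.87, SE 0.10, limma adjusted p = 1.6e-05). Plxnb1, the SEMA4D receptor, held 2261, 1819.5, 2174 and 2297 in dKO livers against 1016, 1416, 1479 and 1386 in control livers. It too was higher without overlap (log2 change 0.70, SE 0.12, limma adjusted p = 0.00050).

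Plxnb2 went the other way. This receptor of class 4 semaphorins held 4058, 3364, 4061 and 4141 in dKO livers against 5999.9, 5407, 5169 and 5135 in control livers. Every dKO liver was below every control liver (log2 change -0.48, SE 0.09, limma adjusted p = 0.00080). It remained the most abundant of the guidance receptors in both groups. Plxnc1, the SEMA7A receptor, held 563, 522, 651 and 857 in dKO livers against 551, 647, 256 and 589 in control livers. Control 3 was low and the rest mixed (log2 change 0.40, SE 0.25, limma adjusted p = 0.24). Plxna1 held 265, 288, 355 and 357 in dKO livers against 252, 267, 279 and 264 in control livers, and dKO 1 and dKO 2 overlapped with or lay near the controls (log2 change 0.24, SE 0.11, limma adjusted p = 0.12). Plxna2, Plxna4 and Plxnb3 were neither, with log2 changes of -0.18, 0.24 and 0.52 in that order.

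Of the Eph receptors, 4 of 5 in the A group and 1 of 5 in the B group were higher. Together 50% of the Eph receptors were higher, against 21.2% of all tested genes. The difference between the groups of receptors was not tested. Epha3 held 82.5, 92.5, 81.8 and 84.7 in dKO livers against 22.6, 24.6, 21.04 and 36.6 in control livers. The gap between groups was wide (log2 change 1.72, SE 0.22, limma adjusted p = 6.1e-05). Epha7 held 63.4, 70.3, 51.1 and 59.6 in dKO livers against 21.6, 20.5, 33.7 and 17.2 in control livers, again with no overlap (log2 change 1.41, SE 0.26, limma adjusted p = 0.00082). Epha1, the most abundant Eph receptor per length, held 1119, 1275, 1250.2 and 1204 in dKO livers against 835, 833, 774 and 769.7 in control livers. Both groups were tight and apart (log2 change 0.59, SE 0.07, limma adjusted p = 4.5e-05), and Zyx, on the other strand, shares 6.01% of its exonic length. Epha2, the epithelial receptor of ephrin-A1, averaged 819 ± 141 in dKO livers and 434 ± 107 in control livers (log2 change 0.93, SE 0.17, limma adjusted p = 0.00077). Ephb4, the venous receptor of ephrin-B2, held 964, 876, 824 and 934 in dKO livers against 729, 746, 649 and 754 in control livers. This was the smallest change among the called genes (log2 change 0.32, SE 0.08, limma adjusted p = 0.0075). Epha4, Ephb1, Ephb2, Ephb3 and Ephb6 had means of 4.93 to 17.7 in dKO livers and 1.94 to 21.3 in control livers, and none was called.

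Of the 4 ROBO receptors, 2 were higher (50%) and 2 were neither, against 21.2% of all tested genes higher. Robo1 held 445, 429.9, 494 and 498 in dKO livers against 147, 249, 230.3 and 200.1 in control livers. The groups were apart (log2 change 1.20, SE 0.15, limma adjusted p = 4.4e-05). Robo2 held 82.5, 130.4, 168 and 65.2 in dKO livers against 33.9, 26.7, 35.8 and 36.6 in control livers. The dKO livers varied widely but all exceeded the controls (log2 change 1.64, SE 0.28, limma adjusted p = 0.00051). Robo4, the endothelial member, held 239, 252, 332 and 332 in dKO livers against 251, 261, 253 and 239 in control livers. dKO 1 and dKO 2 lay at the control level and the other dKO livers above it (log2 change 0.19, SE 0.12, limma adjusted p = 0.26). Robo3 averaged 9.82 ± 2.37 in dKO livers and 8.06 ± 4.54 in control livers and was neither.

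**Figure D3:**
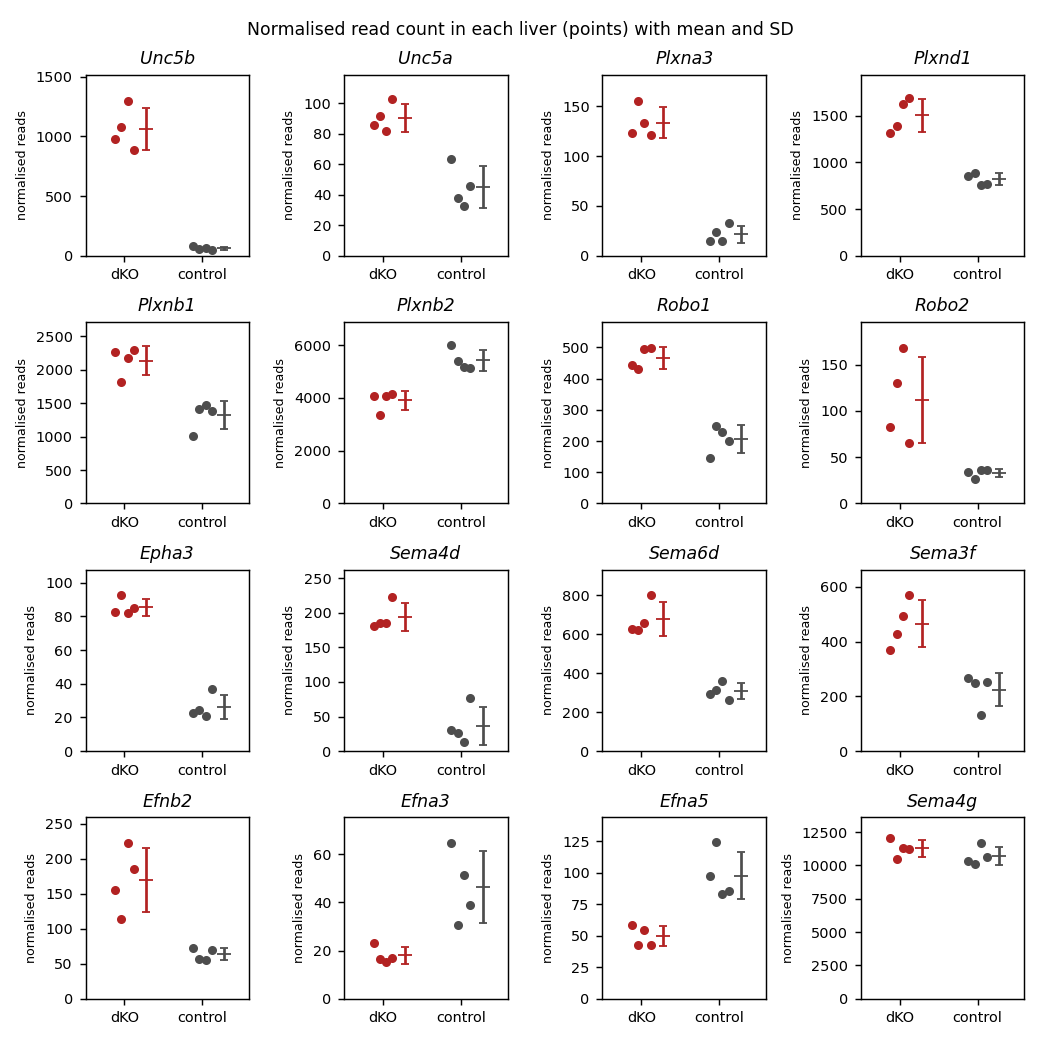
Normalised read counts of 16 ligands and receptors in each liver (points), with the mean and SD of 4 livers beside them; each axis starts at 0. Unc5b, Plxna3 and Sema4d show the widest gaps, Plxnb2, Efna3 and Efna5 are lower in dKO livers, and the groups of Sema4g overlap.

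Divided by exonic length, the same few genes led in both groups. Sema4g stood at 1302 ± 72.3 normalised reads per kb in dKO livers and 1236 ± 81.0 in control livers. Plxnb2 came next, at 506 ± 47.1 per kb in dKO livers and 703 ± 51.8 in control livers. Efna1 followed at 473 ± 48.3 per kb in dKO livers, within the spread of Plxnb2, and at 402 ± 68.7 in control livers, within the spread of Sema4a at 404 ± 24.4. Epha1 stood at 309 ± 17.4 per kb in dKO livers and 204 ± 9.13 in control livers. Unc5b had a level of 169 ± 27.99 per kb in dKO livers and 9.998 ± 1.93 in control livers. In rank by level it was number 10 of the 60 genes in dKO livers and number 28 in control livers, and among receptors number 7 in dKO livers and number 13 in control livers. In dKO livers it did not differ beyond its spread from Epha2, at 175 ± 30.2 per kb, which was just above it.

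**Figure D4:**
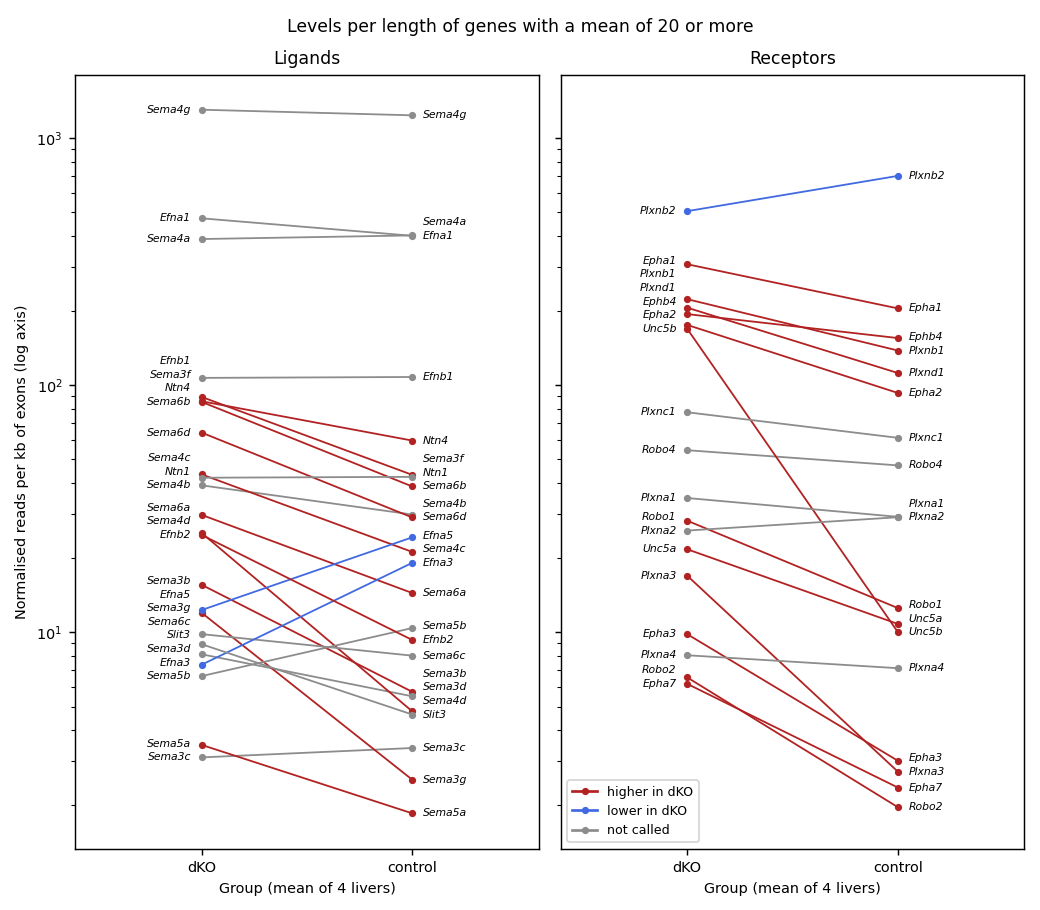
Lines join the group mean of each gene, in normalised reads per kb of exons on a log axis, from dKO (left) to control (right), for ligands and receptors with a mean of 20 or more; crowded names are moved slightly. Sema4g and Plxnb2 head the ligands and the receptors in both groups, and the line of Unc5b is the steepest, 169 per kb in dKO livers against 9.998 in control livers.

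Known ligands and receptors were set side by side for 45 pairs, which share genes and are not independent. The pairs are a chosen and partial list, in which Epha7, for example, has no pair, and the counts depend on that choice. They hold 21 semaphorin and plexin pairs, 14 ephrin and Eph pairs, 4 netrin and UNC5 pairs and 6 slit and ROBO pairs. Both partners were higher in 5 pairs, namely Sema3f with Plxna3, Sema3g with Plxnd1, Sema4d with Plxnb1, Efnb2 with Ephb4 and Ntn4 with Unc5b. A higher ligand met a receptor that was lower in 2 pairs, Sema4c and Sema4d with Plxnb2, and a lower ligand met a higher receptor in 2 pairs, Efna5 with Epha2 and Epha3. In 15 pairs only the receptor was called higher with its ligand neither, as for Ntn1 with Unc5b. In 11 pairs only the ligand was called higher with its receptor neither, as for Sema7a with Plxnc1. In 0 of 6 slit and ROBO pairs were both partners called.

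**Figure D5:**
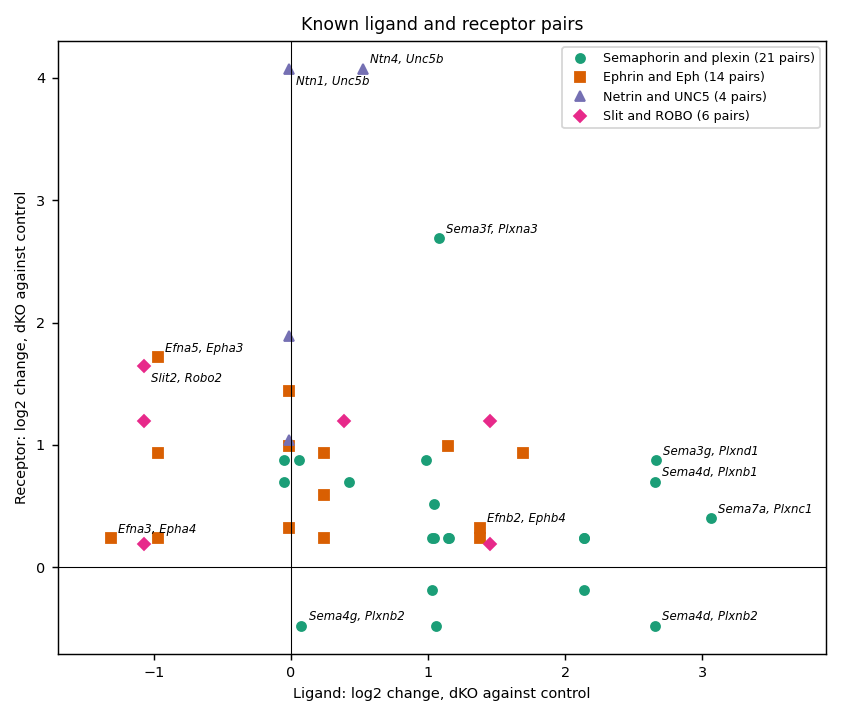
Each point is a known pair, with the log2 change of the ligand across and that of the receptor up, dKO against control; shapes mark the family. The pairs of Unc5b stand at 4.07 on the receptor axis, with ligand changes of -0.02 for Ntn1 and 0.52 for Ntn4, and the pairs of Plxnb2 stand at -0.48.

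Co-receptors and other surface partners were called in both directions. Nrp1, the neuropilin that pairs with plexins for class 3 semaphorins, was lower, at 1349 ± 145 in dKO livers and 1911 ± 159 in control livers (log2 change -0.51, SE 0.09, limma adjusted p = 0.00087). Nrp2 averaged 309 ± 28.5 in dKO livers and 269 ± 51.2 in control livers and was not called (limma adjusted p = 0.26). Neo1, neogenin, a netrin and repulsive guidance receptor, was lower, at 278 ± 29.0 in dKO livers and 438 ± 28.4 in control livers (log2 change -0.66, SE 0.10, limma adjusted p = 0.00023). Surface partners that were higher included Itgb1, the beta subunit of SEMA7A-binding integrins (log2 change 0.50, SE 0.07, limma adjusted p = 9.3e-05), and Sdc1, a heparan sulfate proteoglycan (log2 change 0.65, SE 0.12, limma adjusted p = 0.0012). Flrt2, a ligand of UNC5 receptors, was called higher as well (log2 change 2.09, SE 0.72, limma adjusted p = 0.038). Its groups overlapped, and control 4, at 129, lay above every dKO liver (66.4 to 94.0). No value is given for Dcc, which was not among the 17 genes with values in the netrin and repulsive guidance list (21 listed).

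Lists of co-receptors, other surface partners and intracellular effectors, the genes just named included, held more higher than lower genes. So did all tested genes, with 21.2% higher and 17% lower, and 26.4% and 24.3% at a mean of 20 or more. The lower shares of the semaphorin and plexin list (15.4%) and the slit and ROBO list (17.6%) were near that of all tested genes. No list was tested against these shares. Of 26 semaphorin and plexin partners, 14 were higher and 4 lower, among them the small GTPase gene Rras, at 954 ± 60.7 in dKO livers and 411 ± 19.6 in control livers (log2 change 1.21). Cd72, which encodes a SEMA4D receptor of immune cells, averaged 145 ± 12.9 in dKO livers and 41.0 ± 10.5 in control livers (log2 change 1.85). Of 19 ephrin and Eph effectors, 11 were higher and 0 lower, with the kinase gene Src at 209.6 ± 34.2 in dKO livers and 49.8 ± 18.4 in control livers (log2 change 2.15). Of 17 tested GTPase and actin genes of the growth cone, 10 were higher and 1 lower, with Pak1 at 171 ± 13.1 in dKO livers and 48.3 ± 3.95 in control livers (log2 change 1.81). Of 17 tested genes in the slit and ROBO list, 8 were higher and 3 lower, and those higher include Igdcc4, placed there though a relative of DCC. Igdcc4, an immunoglobulin-family relative of DCC in that list, held 987.5, 620.4, 876 and 1264 in dKO livers against 2.05, 2.05, 3.16 and 10.3 in control livers. The controls lie at or near the detection limit and the dKO livers far above it (limma adjusted p = 5.1e-08). Srgap2, a ROBO-binding regulator of RAC, was higher (log2 change 0.77) and its relative Srgap3 lower (log2 change -1.48). Of 16 netrin and repulsive guidance partners, 7 were higher and 2 lower, with Vasp (log2 change 0.82) and Evl (log2 change 1.44), which encode actin regulators, among those higher. The other genes of these lists named with a log2 change here had limma adjusted p-values between 2.7e-07 and 0.0036.

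Markers of several liver cell types moved together with these genes, and their part in the changes was not tested. The marker counts stand beside 21.2% higher and 17% lower over all tested genes. Of 12 stellate and fibroblast markers, 8 were higher, and their summed level was 15633 to 21292 in dKO livers and 3823 to 9657 in control livers. Of 10 cholangiocyte markers, 7 were higher, with sums of 8190 to 12457 in dKO livers and 945 to 1774 in control livers. Most of that sum is Spp1, and the other 9 markers summed to 689 to 1052 in dKO livers and 450.4 to 536 in control livers. Of 10 macrophage and monocyte markers, 9 were higher, with sums of 11985 to 16908 in dKO livers and 5152 to 8967 in control livers. In each of these 3 sums control 4 was the highest control. Of 10 neutrophil markers, 10 were higher, with sums of 748 to 1048 in dKO livers and 78.0 to 357 in control livers. Of 8 proliferation genes, 7 were higher, with sums of 1315 to 1763 in dKO livers and 698 to 908 in control livers.

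Endothelial markers, of interest for Plxnd1, Sema3g, Efnb2, Ephb4 and Robo4, were divided. Of 12 vascular markers, 8 were higher and 0 lower, with sums of 7666 to 9583 in dKO livers and 5353 to 6280 in control livers, including Cdh5 (log2 change 0.76) and Pecam1 (log2 change 0.59). Of 10 sinusoidal markers, 2 were higher and 3 lower, with sums of 8825 to 11427 in dKO livers and 7584 to 9800 in control livers. The sinusoidal share of higher genes, 20%, was near the 21.2% of all tested genes, of which 17% were lower. Of 10 hepatocyte markers, 2 were higher and 4 lower, and sums of 1239580 to 1306710 in dKO livers overlapped with 1210160 to 1330010 in control livers. Most of that sum is Alb, and the other 9 markers summed to 405640 to 450970 in dKO livers, below the 471297 to 506221 in control livers. Markers of neurons and Schwann cells, the cells in which guidance genes are best known, were higher in 2 of 9 and lower in 1, and their sums of 354 to 521 in dKO livers overlapped with 368 to 518 in control livers. Their share of higher genes, 22.2%, was near that of all tested genes as well. Without Syt1, the most abundant of them, the other 8 summed to 170.3 to 196 in dKO livers, above the 73.9 to 151 in control livers. Of 10 lymphocyte markers 1 was higher and 3 lower, and of 7 mesothelial markers 1 was higher. Of 12 markers listed for neurons and Schwann cells, 9 had values, and the others were left out. All 22052 genes measured had reads in at least 1 liver, so no marker with values could be at 0 in all livers.

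The 3 genes matched by letters alone were kept out of these counts. Unc50, unrelated to UNC5 receptors, was lower, at 381 ± 4.68 in dKO livers and 515 ± 31.1 in control livers (log2 change -0.43, SE 0.08, limma adjusted p = 0.00096). Plxna4os1, an antisense RNA of Plxna4, averaged 13.8 ± 2.71 in dKO livers and 6.15 ± 2.96 in control livers (log2 change 1.20, SE 0.44, limma adjusted p = 0.048), and its call was lost in 13 of 17 alternative settings. Unc5cl averaged 2.02 ± 2.38 in dKO livers and 3.63 ± 3.85 in control livers and was neither.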

How the data were processed

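The authors deposited a table for all 8 livers that is named for FPKM. The deposited values are instead a signal in another unit, gene reads divided by a size factor per library, since 100% of values in each library are whole multiples of a step within 0.001. For dKO 1 the step lies near 1. The tools named are HISAT2 2.0.5, fastp, DESeq2 and featureCounts 1.5.0-p3, and the build is mm10, per the submitters' processing notes, which give neither roles nor order. No source used here gives the strand setting or the annotation. A pseudocount of 0.5 was added before log2, genes whose mean fell below 0.5 were set aside, and the remaining 20055 were tested in limma 3.58.1 under R 4.3.3 (2-sided, eBayes with trend), adjusted by Benjamini-Hochberg over all of them, at a threshold of 0.05. The design had allowed for FPKM, and the test is the same. On reads recovered from the steps, edgeR 4.0.16 and DESeq2 1.42.0 were run as alternatives, beside other pseudocounts, filters, scalings, a replicate block and leaving out each liver. The limma script was tested on simulated data. Of 22052 identifiers, 21796 matched a symbol. The mouse numbers did not pair the groups. Values in every liver are given for up to 20 called genes with an absolute log2 change of 1 or more and a mean of 20 or more, by smallest adjusted p, and for the gene with the highest level per kb in each family; Efna5 was added after its values were seen. Of the other lists, the rule gives up to 3 called genes with the smallest adjusted p, the neuropilins and neogenin. Part of these are named, and Alb, Spp1, Srgap3, Pecam1, Itgb1, Sdc1, Flrt2, Flrt3, Gas1 and Lrtm1 were added likewise. The genes and lists were chosen with earlier results of these data known. Lengths and 3' UTRs are from GENCODE M21 on mm10.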

Additional observations from a re-analysis of the deposited data

Results flagged for a closer look

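In 126 groups of 4 livers, over the 63 genes matched, the highest or lowest liver of 11 stood apart from the other 3 by more than 0.829 of the range of its group. Chance gives this in about 1 of 20 groups. Among abundant genes, dKO 2 was low for Plxnb2 (3364, against up to 4141 in the other dKO livers) and high for Ntn1 (318), and dKO 4 was high for Sema4d (223). Control 3 was low for Sema3f (134) and high for Efna1 (925) and Sema6c (57.8), and control 4 was high for Ntn4 (264). Near the detection limit, dKO 4 was high for Sema3e (7.45), dKO 2 low for Slit2 (0), control 4 high for Efna2 (6.86) and control 1 high for Ntn5 (2.05).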

How the results depend on the processing

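Of the 28 called genes, 26 kept their call in all settings run; Sema3a and Sema5a did not, as described above. Leaving out a liver gave 24 to 29 higher and 3 to 4 lower genes, 11 to 15 higher and 2 to 2 lower ligands, and 12 to 14 higher and 1 to 2 lower receptors, with the lower count of 2 receptors reached without control 3. Quantile normalization gave 5 lower genes and 2 lower receptors and moved the median of all genes from 0.03 to -0.08, that of ligands to 0.48 and that of receptors to 0.66. Over the whole table it gave 3638 higher and 4312 lower genes, against 4244 and 3410. The cause was not tested. Mouse numbers did not pair the groups (correlations of same-numbered deviations -0.07 to 0.08), and with the number as a replicate block 27 genes were higher and 3 lower. Genes that were not called changed sign in 22 fits of 9 genes. With quantile normalization these were Sema3c (-0.39), Sema4a (0.055), Sema6c (-0.14), Slit1 (-0.021), Epha4 (-0.15) and Plxna4 (-0.049). Sema3c was -0.14 by edgeR and -0.12 by DESeq2. Leaving out a liver gave ranges across 0 for Sema3c (-0.36 to 0.40), Efnb1 (-0.059 to 0.039), Ntn1 (-0.11 to 0.025), Epha4 (-0.23 to 0.83) and Robo3 (-0.032 to 0.75). ATTTA was found in 73.3% of guidance genes and 69.1% of all genes, and TTATTTATT, chosen after seeing the data, in 11.7%, in 20% of those higher and in 8.26% of all; in the longest UTR alone TATTTAT was found in 28.8% of all genes. Per kb of the longest transcript, Sema4g stood at 2478, Sema4a at 658 and Plxnb2 at 601 in dKO livers, so Sema4a then ranked above Plxnb2. Genes below about 20 normalised reads had wide intervals.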

Other observations

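Guidance and adhesion genes outside the 4 ligand and receptor systems were also examined. Of 18 tested genes of this kind, 7 were higher and 2 lower, with a median log2 change of 0.96 against 0.03 over all tested genes. Of all tested genes, 21.2% were higher and 17% lower. Lrtm2, which encodes a leucine-rich repeat membrane protein, held 859, 772, 763 and 809 in dKO livers against 1.03, 0, 3.16 and 0 in control livers. Its control values lie at or below the detection limit of 3 reads (limma adjusted p = 8.2e-08). The lower genes were Gas1 (log2 change -1.22, SE 0.15, limma adjusted p = 4.3e-05) and Lrtm1 (log2 change -1.92, SE 0.36, limma adjusted p = 0.0011). Nfasc, neurofascin, a cell adhesion protein of axons, averaged 124 ± 17.6 in dKO livers and 32.6 ± 1.84 in control livers (log2 change 1.90, SE 0.18, limma adjusted p = 4.3e-06). Cxcr4, the chemokine receptor that guides leukocytes and growing axons, averaged 119 ± 25.5 in dKO livers and 15.5 ± 5.79 in control livers (log2 change 2.94, SE 0.28, limma adjusted p = 6.5e-06). Flrt3, which encodes a membrane protein that binds UNC5 receptors, held 14.1, 16.6, 12.8 and 20.5 in dKO livers against 0, 0, 0 and 8.01 in control livers. All dKO livers lay above control 4, the only control with reads (limma adjusted p = 0.0025), and the fold is not given because the other controls are at 0. Among neuronal and Schwann cell markers, Tubb3, a neuronal tubulin gene, held 21.1, 40.7, 46.0 and 42.8 in dKO livers against 1.03, 2.05, 0 and 1.14 in control livers. The control values lie below the detection limit of 3 reads. Syt1, a gene of synaptic vesicles, was lower, at 237 ± 71.6 in dKO livers and 364 ± 53.3 in control livers (limma adjusted p = 0.013), with dKO 1 inside the control range.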
